A study of Mus musculus with 6 samples.

Results

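The 10 transcripts Eef1a1, Eef1b2, Eef1d, Eef1g, Eef2, Tpt1, Pabpc1, Naca, Eif3f and Gas5 were taken by symbol from a table of 53677 gene symbols. Of these, 9 encode proteins and 1, Gas5, is a noncoding host of small nucleolar RNAs. They were chosen as transcripts controlled like those of ribosomal proteins while encoding other products, and all 10 passed the filter on low values that 11326 genes passed. Poly(A) RNA had been sequenced from short-term hematopoietic stem cells (ST-HSC), multipotent progenitors of limited self-renewal, sorted from ground long bones, pelvis and spine of C57BL/6J mice. Cells without lineage markers or CD150 that carried Kit and CD48 were sorted, and the labels name no Sca-1 gate. The groups were 3 samples from mice that carry dnTCF4, a version of the transcription factor TCF4 acting as a dominant negative (genotype label dnTCF4+/+), and 3 samples from wild-type (WT) mice (genotype label dnTCF4-/-). The series description gives 3 mice of each genotype. The labels used here state neither the mice's age nor the promoter that drives the transgene.

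Transcripts of the terminal oligopyrimidine (TOP) class begin with a C followed by an unbroken run of C and T. Translation of such mRNAs is coupled to nutrient and growth signals through the kinase complex mTORC1 and the cap-binding protein LARP1, so that the parts of the translation machinery are made together. Ribosomal proteins are the largest TOP group, and elongation factors, poly(A)-binding protein and hosts of small nucleolar RNAs belong to it as well. Control of protein synthesis is known to matter in blood stem cells, whose translation rate is kept low. RNA levels, which are all that was measured here, do not show how well a transcript is translated.

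The annotated 5' ends are shown because the pyrimidine run is the feature that names the class. Of the 10 genes, 7 had an entry in the RefSeq promoter table of GRCm38.p6; Eef1d, Eef1g and Pabpc1 had none. Each window below has 30 bases, written 5' to 3' on the transcribed strand, with the run that starts with C in capitals. The first 4 windows begin 10 bases before the annotated start. That of Eef2 lies downstream of the start, and its run begins 15 bases after the start.
Eif3f (plus strand, chr7:108934405-108934434): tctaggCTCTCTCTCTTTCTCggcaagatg
Gas5 (plus strand, the downstream one of 2 annotated starts, chr1:161035156-161035185): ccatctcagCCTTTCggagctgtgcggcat
Eef1a1 (minus strand, chr9:78481705-78481734): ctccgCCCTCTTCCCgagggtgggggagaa
Naca (plus strand, chr10:128035336-128035365): tcgttCTCTTaaagaggaaacccggacgcc
Eef2 (plus strand, chr10:81176636-81176665): cgtcagcggtCTCTTCCgccgcagccgccg
A C exactly at the annotated start, followed by at least 4 C or T on the transcribed strand, was found for 2 of the 7 genes, Eif3f and Gas5. Counted by promoter this was 2 of 8. The same held for 2.51% of all 32851 promoters in the table and for 20.3% of 69 promoters of ribosomal protein genes. With the run allowed to begin within 10 bases of the annotated start, 4 of the 7 genes and 4 of their 8 promoters held one. All 4 runs began upstream of the start, at -4 for Eif3f, -1 for Gas5, -5 for Eef1a1 and -5 for Naca. That of Naca, 5 bases long, also ended before the start and so lay outside the annotated transcript. The shares were 30.7% of all promoters and 53.6% of those of ribosomal protein genes. From 10 bases before to 50 bases after the start all 7 genes and 7 of their 8 promoters held one. But so did 58.1% of all promoters and 89.9% of those of ribosomal protein genes. An annotated start need not be the one used in these cells, and a match is a description of letters only.

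Before the members, the libraries were compared as a whole. They held 57400000 to 110900000 counted reads in dnTCF4 and 61800000 to 67700000 in WT. Tcf7l2, which encodes TCF4, had 2.15, 1.99 and 2.80 RPKM (reads scaled by gene length and by the library's total of counted reads) in dnTCF4 replicates 1, 2 and 3, against 1.56, 1.29 and 1.69 in WT replicates 1, 2 and 3. Kit was at 35.5 to 97.1 RPKM in dnTCF4 and 47.3 to 83.7 in WT, and Slamf1, which encodes CD150, was at most 1.18 RPKM in dnTCF4 and 1.15 in WT. Immunoglobulin genes took 3.27% to 6.33% of summed RPKM in dnTCF4 and 25.5% to 44.1% in WT. RPKM divides by counted reads, so every other gene is moved by their share of reads, which is not their share of summed RPKM. RPKM times exon length, summed outside immunoglobulin genes, follows the share of reads left to other genes. Relative to the geometric mean of the 6 libraries it was 1.04 to 1.05 in dnTCF4 and 0.90 to 0.98 in WT. Summed over 8 neutrophil markers, dnTCF4 libraries held 3066 to 7585 RPKM, the highest in replicate 3, and WT libraries 614 to 3106. The sum over 6 erythroblast markers was 43.9 to 87.9 RPKM in dnTCF4 and 16.8 to 26.3 in WT, that over 5 megakaryocyte markers 131 to 165 in dnTCF4 and 52.0 to 74.8 in WT, and the 5 T cell markers summed to at most 3.90 RPKM in dnTCF4 and 3.42 in WT. In a principal component analysis dnTCF4 replicate 3 stood farthest from the centre on the first component, which held 47.0% of the variance. A fit with the immunoglobulin genes left out is given below, and the part these differences play in the results was otherwise not tested. In bulk samples such as these, fewer cells of a type and less RNA per cell cannot be told apart.

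None of the 10 transcripts passed the test between genotypes (limma on log2(RPKM + 1), Benjamini-Hochberg adjustment over all genes, adjusted p under 0.05), with adjusted p from 0.44 to 0.85. Over all genes tested, 0.3% were called. The 34 called genes split into 5 with higher values in dnTCF4 (0.0441% of all tested) and 29 with lower values (0.256%). After median ratio scaling, which aligns the libraries on their typical gene, 26 genes were called, all 26 lower. At an unadjusted p under 0.05 stood 1 of the 10, Tpt1, against 9.62% of all genes. By voom on recovered reads, which gave no value for Eef1d, 0 of 9 were called, against 0.14% of 10004 genes. At an unadjusted p under 0.05 by voom stood 2 of the 9, against 9.37% of genes. Same-numbered libraries were taken as pairs from correlations in these same data, as the labels state no pairing. With the replicate number as a block limma called 0 of 10, against 0.433% of all genes. In that fit 3 of 10 had an unadjusted p under 0.05, against 14.9% of all genes. These were Tpt1, Eef1a1 and Gas5, with limma adjusted p of 0.31, 0.32 and 0.33. In all 3 pairs 6 of 10 were higher in dnTCF4 (these 3, Eef1g, Pabpc1 and Naca), against 37.3% of all genes. On the values as deposited 9 of the 10 had a higher mean in dnTCF4, Eef2 being the exception, and the median log2 fold change of the 10 (dnTCF4 minus WT) was 0.37. Of all genes tested, 68.5% had a higher mean in dnTCF4. The median was 0.14 over all genes tested and 0.43 over 80 genes of cytosolic ribosomal proteins. After median ratio scaling, which shifts the median of all genes to -0.04, the 10 had a median of 0.15 and 7 of 10 were higher in dnTCF4, against 43.6% of all genes, while the ribosomal protein genes had a median of 0.21. The median of the 10 thus lay above that of all genes on both scales, but Eef2 and Eef1d lay below it on both, and Eef1b2 after scaling.

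**Figure D1:**
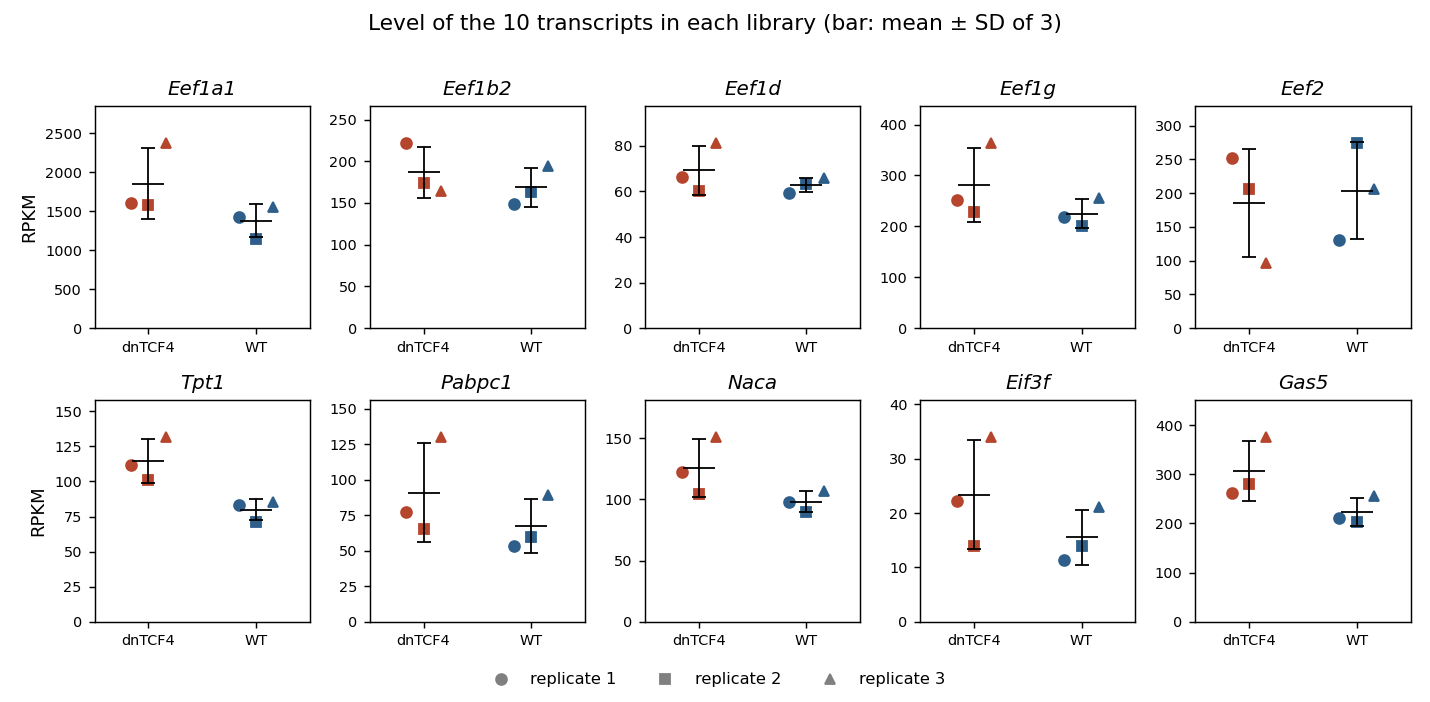
RPKM of each transcript (vertical axis, each panel with its own scale from 0) in the 3 dnTCF4 and the 3 WT libraries; symbols mark the replicate number and bars the mean ± SD. dnTCF4 replicate 3 held the highest value for 8 of the 10 transcripts and the lowest for Eef2.

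The elongation factor eEF1A, encoded by Eef1a1 (GRCm38 chromosome 9, 78478449 to 78489151), carries each aminoacyl-tRNA to the ribosome and is among the most abundant proteins of a cell. Eef1a1 had 1609.9, 1574 and 2375 RPKM in dnTCF4 replicates 1, 2 and 3, against 1425, 1145 and 1558 in WT replicates 1, 2 and 3. The groups did not overlap, by the narrow gap between dnTCF4 replicate 2 and WT replicate 3. Its mean over the 6 libraries ranked 26 among all genes of the table, and it made up 53.7% to 60.8% of the summed RPKM of the 10 transcripts in dnTCF4 and 50.1% to 58.4% in WT. The log2 fold change was 0.41 (SE 0.22, 95% interval -0.11 to 0.94, limma adjusted p = 0.61). Median ratio scaling brought it to 0.20, and it was 0.22 without dnTCF4 replicate 3, which had 1.49 times the level of the other dnTCF4 libraries. Many processed copies of this gene lie in the genome, and how reads that fit several places were counted is not given in the sources used here.

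The exchange factor eEF1B recharges eEF1A with GTP. Its subunits are eEF1Bα, encoded by Eef1b2, eEF1Bδ, encoded by Eef1d, which both hold the catalytic activity, and eEF1Bγ, encoded by Eef1g, which is structural. Eef1g (chromosome 19, 8967041 to 8978479) had 251, 229 and 364 RPKM in dnTCF4 replicates 1, 2 and 3, against 218, 201 and 256 in WT replicates 1, 2 and 3. Eef1b2 (chromosome 1, 63176825 to 63180486) had 222, 174 and 164 RPKM in dnTCF4, against 149, 163 and 194 in WT. Eef1d (chromosome 15, 75894205 to 75909556) had 66.5, 60.2 and 81.3 RPKM in dnTCF4, against 59.5, 63.4 and 65.8 in WT. All 3 subunit genes overlapped between genotypes. Their log2 fold changes were 0.30 (SE 0.22) for Eef1g, 0.14 (SE 0.19) for Eef1b2 and 0.13 (SE 0.18) for Eef1d, with limma adjusted p of 0.70, 0.77 and 0.78. After median ratio scaling the sign turned for Eef1b2 (-0.07) and Eef1d (-0.09) and not for Eef1g (0.08). Without dnTCF4 replicate 3 Eef1g was at 0.10 and Eef1d at 0.010. Eef1b2 was at 0.015 without dnTCF4 replicate 1, at 0.058 without WT replicate 1 and at 0.23 without dnTCF4 replicate 3. Exons of Eef1d share 277 bases with Naprt on the same strand, and its annotated length of 6488 bases holds a long isoform, so its level per length is uncertain.

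The ratio of Eef1g to Eef1b2 RPKM showed how far the subunit genes kept step. It was 1.13, 1.31 and 2.21 in dnTCF4 replicates 1, 2 and 3, against 1.47, 1.23 and 1.32 in WT replicates 1, 2 and 3 (exact two-sided permutation p = 0.9, n = 3 each). The WT libraries lay within a narrower band than the dnTCF4 libraries, of which replicate 1 lay below that band and replicate 3 above it. Eef1a1 kept closer step with Eef1g, with ratios of 6.41, 6.87 and 6.53 in dnTCF4 and 6.54, 5.69 and 6.08 in WT (exact two-sided permutation p = 0.3, n = 3 each).

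Eef2 (chromosome 10, 81176631 to 81182498) encodes the translocase that moves the ribosome by a codon after each peptide bond. It had 252, 206 and 96.1 RPKM in dnTCF4 replicates 1, 2 and 3, against 131, 274 and 206 in WT replicates 1, 2 and 3. The groups overlapped widely, with a low library in each genotype: dnTCF4 replicate 3 and WT replicate 1. Its log2 fold change of -0.19 had the widest error of the elongation factors (SE 0.41, 95% interval -1.16 to 0.79, limma adjusted p = 0.85). The sign turned without dnTCF4 replicate 3 (0.23) and without WT replicate 2 (0.06). Eef1a1 and Eef2 act in the same elongation cycle, yet their ratio was 6.38, 7.64 and 24.7 in dnTCF4, against 10.9, 4.18 and 7.57 in WT (exact two-sided permutation p = 0.5, n = 3 each).

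The libraries also differed by GC content, which was looked at after the values of Eef2 were seen. Eef2 had a transcript of 57.0% GC, which put it in the highest of 5 equal groups of genes by GC content, together with Eef1d at 56.1%. In dnTCF4 replicate 3 the median gene of the highest GC group lay 0.15 below its mean over the 6 libraries on log2(RPKM + 1), and the median gene of the lowest group 0.29 above. The difference between highest and lowest group was 0.20, -0.08 and -0.44 in dnTCF4 replicates 1, 2 and 3, against -0.05, 0.25 and 0.11 in WT replicates 1, 2 and 3. On the same scale Eef2 deviated by 0.47, 0.17 and -0.92 in dnTCF4 and by -0.48, 0.58 and 0.17 in WT. The sign of its deviation was that of the GC difference in every library except dnTCF4 replicate 2. In WT replicate 1 the match says little, since the medians of all 5 GC groups lay between -0.24 and -0.17. Eef1d did not share the pattern of Eef2 (0.30 in dnTCF4 replicate 3). Of all genes tested, 8.15% lay as low as Eef2 or lower in dnTCF4 replicate 3, and of the highest GC group 16.3%. With the GC trend removed in each library the log2 fold change of Eef2 was -0.21. Its part in the level of Eef2 was not tested further.

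**Figure D2:**
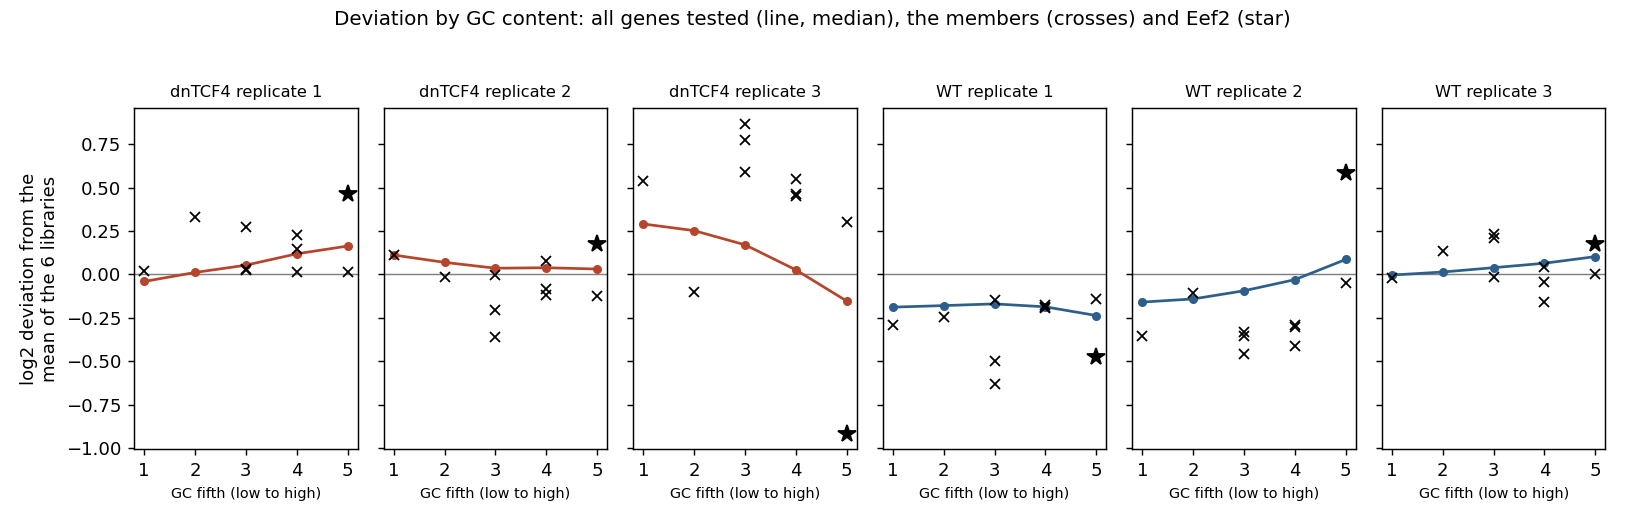
Deviation of each library from the mean of the 6 libraries on log2(RPKM + 1) (vertical axis) for genes in 5 equal groups by GC content (horizontal axis). The line is the median of all genes tested, crosses are the 10 transcripts and the star is Eef2, which is at -0.92 in dnTCF4 replicate 3 and 0.58 in WT replicate 2.

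Genes with the profile nearest to Eef2 were sought among the 2858 genes at or above the mean of the lowest member, by the SD of the difference in log2(RPKM + 1) over the 6 libraries. This search was also added after the values were seen. The nearest was Rab38, a small GTPase gene, with an SD of 0.09 and 66.5 RPKM in dnTCF4 replicate 3. At 46.7% GC it lay outside the highest GC group, which began at 54.4%. The next was Fau, at 60.5% GC within that group, which encodes the ribosomal protein eS30 fused to a ubiquitin-like protein. Fau had 324, 220.1 and 111 RPKM in dnTCF4 replicates 1, 2 and 3, against 148, 342 and 232 in WT replicates 1, 2 and 3. Of the 100 nearest genes 34 were in the highest GC group, which held 15.7% of all genes at that level.

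Tpt1, Pabpc1 and Naca encode proteins outside the elongation cycle. Tpt1 (chromosome 14, 75845093 to 75848525) encodes the translationally controlled tumour protein, an abundant growth-related protein. It had 112, 101 and 132 RPKM in dnTCF4 replicates 1, 2 and 3, against 83.3, 71.3 and 85.5 in WT replicates 1, 2 and 3, and every dnTCF4 library lay above every WT library. The log2 fold change was 0.51 (SE 0.18, 95% interval 0.09 to 0.93, unadjusted p = 0.024, limma adjusted p = 0.44), the 1 interval of the 10 that excluded 0 in the fit without the block. With median ratio scaling it was 0.30, where the groups overlapped through WT replicate 1, and 0.41 without dnTCF4 replicate 3. A processed copy listed separately, Tpt1-ps3, had 6.69 to 12.6 RPKM in dnTCF4 and 5.77 to 7.50 in WT, so that reads may be shared between them.

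Pabpc1 (chromosome 15, 36595661 to 36609668) encodes the main cytoplasmic poly(A)-binding protein. It had 77.0, 65.5 and 130.2 RPKM in dnTCF4 replicates 1, 2 and 3, against 53.3, 59.8 and 89.2 in WT replicates 1, 2 and 3. The highest library of each genotype was replicate 3, and the groups overlapped. The log2 fold change was 0.40 (SE 0.31, limma adjusted p = 0.70), and 0.11 without dnTCF4 replicate 3. Naca (chromosome 10, 128035575 to 128048637) encodes the alpha subunit of the nascent polypeptide-associated complex, which shields new chains at the ribosome exit. It had 122, 104 and 151 RPKM in dnTCF4, against 97.6, 90.0 and 107 in WT, a log2 fold change of 0.34 (SE 0.19, limma adjusted p = 0.63) with overlapping groups. This was 0.12 after median ratio scaling and 0.20 without dnTCF4 replicate 3. The level of Naca per length depends on the isoform. Its annotated exons span 6805 bases because of a long isoform known from muscle, whereas the short transcript has 885 bases. If all reads came from the short one, the mean of 112 RPKM over the 6 libraries would stand for 861.

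Eif3f (chromosome 7, 108934417 to 108942951) encodes a subunit of eIF3, the initiation factor that joins the small ribosomal subunit to the mRNA. It had 22.2, 14.0 and 34.1 RPKM in dnTCF4 replicates 1, 2 and 3, against 11.4, 14.0 and 21.2 in WT replicates 1, 2 and 3. It was the lowest of the 10 transcripts in every library, and within each genotype it was highest in replicate 3. Its log2 fold change of 0.52 was close to that of Tpt1 but had a wider error (SE 0.35, 95% interval -0.31 to 1.35, limma adjusted p = 0.68), and it was 0.21 without dnTCF4 replicate 3.

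Gas5 (chromosome 1, 161034422 to 161038539) has little coding capacity and carries small nucleolar RNAs in its introns. The annotation places 9 such genes within it, and the spliced RNA is known to build up when translation is slowed, since it is then spared from nonsense-mediated decay. Gas5 had 263, 279.9 and 376 RPKM in dnTCF4 replicates 1, 2 and 3, against 211, 202 and 256 in WT replicates 1, 2 and 3. The groups did not overlap as deposited and did after median ratio scaling. The log2 fold change was 0.45 (SE 0.20, 95% interval -0.03 to 0.92, limma adjusted p = 0.55), 0.23 after median ratio scaling and 0.29 without dnTCF4 replicate 3.

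Groups without overlap, higher in dnTCF4, were thus found for 3 of the 10 transcripts (Eef1a1, Tpt1 and Gas5), where 15.4% of all genes tested showed the same. Groups without overlap and lower in dnTCF4 were found for 0 of 10, against 2.26% of all genes. After median ratio scaling both counts were 0 of 10, against 5.54% of all genes for higher and 5.82% for lower. Each of the 3 had an exact two-sided permutation p of 0.1 (n = 3 each), the smallest that 3 against 3 can give. For 7 of the 10 the 95% interval of the log2 fold change lay within 1 log2 unit of 0, that is, within a 2-fold change in either direction. The other 3 were Eef2, Pabpc1 and Eif3f.

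**Figure D3:**
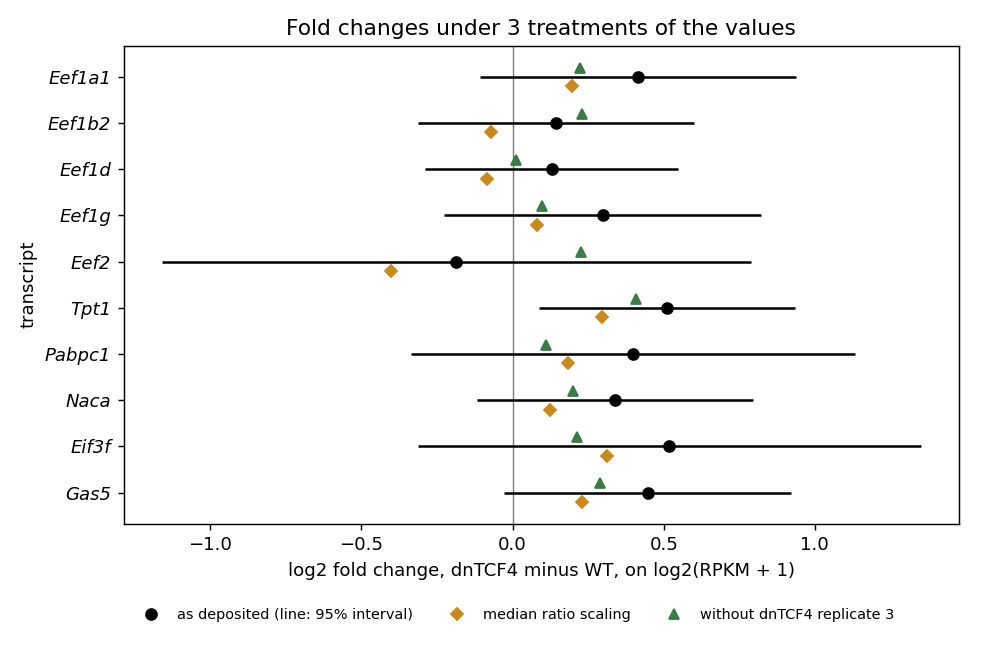
Log2 fold change (dnTCF4 minus WT, horizontal axis) of each transcript as deposited with its 95% interval, after median ratio scaling and without dnTCF4 replicate 3. Scaling moved all 10 points to the left, and leaving out that library brought the median to 0.22.

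The order of the levels was compared within libraries, since RPKM is per length. Eef1a1 stood above Gas5, Eef1b2 above Naca, Naca above Tpt1 and Eef1d above Eif3f in 6 of 6 libraries. All such orders rest on annotated exon lengths that join the exons of every isoform. For Naca and Eef1d they hold a long isoform, and for Gas5 (3760 bases) they include bases of small nucleolar RNA genes. How far the lengths of the other transcripts exceed those of their main RNA was not examined. If all reads of Naca came from its short transcript, its mean would stand for 861 RPKM. That would put it above Eef1b2, at a mean of 178. Gas5 and Eef1g (means of 265 and 253 RPKM), Eef1g and Eef2, Eef2 and Eef1b2, and Pabpc1 and Eef1d kept their order in 4 of 6, and Tpt1 and Pabpc1 in 5 of 6. The order of these neighbours thus varied between libraries. Gas5 stood above Eef1g, and Pabpc1 above Eef1d, in 3 of 3 dnTCF4 and 1 of 3 WT libraries, a difference that was not tested. dnTCF4 replicate 3 held the highest value of 8 transcripts, dnTCF4 replicate 1 that of Eef1b2 and WT replicate 2 that of Eef2. The lowest value was in WT replicate 2 for 5 transcripts, in WT replicate 1 for 4 and in dnTCF4 replicate 3 for Eef2.

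To remove the scale of the library, each transcript was set against the mean log2 RPKM of the 80 cytosolic ribosomal protein genes of the same library. The geometric mean of those genes was 296, 248 and 297 RPKM in dnTCF4 replicates 1, 2 and 3, against 192, 220.03 and 249.6 in WT replicates 1, 2 and 3. On this ratio all 10 transcripts overlapped between genotypes, 5 with a higher and 5 with a lower mean in dnTCF4, and the median difference was 0.02 log2 units. Tpt1 differed by 0.17 (-1.29 ± 0.12 in dnTCF4 and -1.46 ± 0.22 in WT, SD, n = 3 each; two-sided exact permutation p = 0.3). Eef1b2 differed by -0.20 (-0.59 ± 0.23 in dnTCF4 and -0.39 ± 0.04 in WT, SD, n = 3 each; two-sided exact permutation p = 0.2), and by -0.072 without dnTCF4 replicate 3. Eef2 differed by -0.54, Eef1d by -0.22 and Eif3f by 0.20 (two-sided exact permutation p = 0.6, 0.2 and 0.7). Without dnTCF4 replicate 3 Eef1d was at -0.29, Eef1g at -0.21, Eef2 at -0.076 and Eif3f at -0.075. Naca kept most closely to the ribosomal protein genes, with a range of 0.31 log2 units over the 6 libraries, and Eef2 least, with 1.95. A p that misses the threshold does not show that these ratios were equal.

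**Figure D4:**
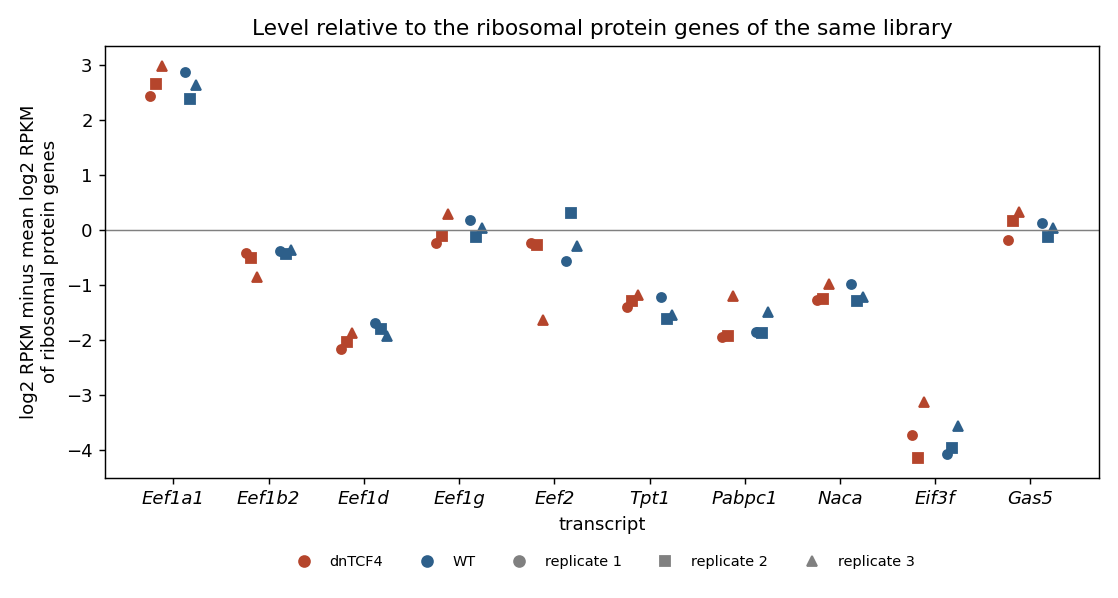
Log2 RPKM of each transcript minus the mean log2 RPKM of 80 ribosomal protein genes of the same library (vertical axis), with dnTCF4 left of WT for each transcript. The genotypes overlap for all 10, and Eef2 in dnTCF4 replicate 3 lies at -1.63.

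Profiles most like the mean of the 10 transcripts were taken over all genes tested, again by the SD of the difference over the 6 libraries. The 5 nearest were the antisense RNA 9130221H12Rik, Psmd5, Mboat7, Atrn and Rnf213, with SDs of 0.03 and means of 1.13 to 3.80 RPKM. Genes this low vary little on log2(RPKM + 1). The search was then restricted to genes at the members' own levels, a step added after the values were seen. Among the 100 nearest at those levels 6 were ribosomal protein genes, which made up 2.76% of all genes there.

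Related lists of the translation machinery gave no called gene, higher or lower, in any list (limma, adjusted p under 0.05), and the smallest adjusted p was 0.19, for Snhg9. Unadjusted limma p under 0.05 was reached by 20 of 80 ribosomal protein genes and 4 of 13 snoRNA hosts, against 9.62% of all genes tested. In the other lists, of 7 to 25 tested genes each, it was reached by 0 genes. Among the ribosomal protein genes Rps27 had 866 ± 242 RPKM in dnTCF4 and 499 ± 62.2 in WT (SD, n = 3 each, limma adjusted p = 0.33). The counts of higher means in these lists stand beside 68.5% of all genes as deposited and 43.6% after median ratio scaling. Of 11 other tested elongation and termination factors 9 had a higher mean in dnTCF4, or 4 after median ratio scaling. Eef1e1, a component of the aminoacyl-tRNA synthetase complex, had 67.6 ± 9.29 RPKM in dnTCF4 and 57.0 ± 1.26 in WT (SD, n = 3 each), and Eef2k, the kinase that inhibits eEF2, had 9.64 ± 1.51 in dnTCF4 and 8.19 ± 0.379 in WT. The 7 genes that make diphthamide, the modified histidine of eEF2, had 2 higher means, or 1 after median ratio scaling, and a median log2 fold change of -0.11, or 0.03 without dnTCF4 replicate 3. Among them Dph2 had 9.81, 10.6 and 3.92 RPKM in dnTCF4 replicates 1, 2 and 3, against 6.35, 22.0 and 11.1 in WT, high and low in the same libraries as Eef2.

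Initiation factors were mixed. Of 12 other tested eIF3 subunits 5 had higher and 7 lower means in dnTCF4, and 3 had higher means after median ratio scaling. Their median log2 fold change was -0.07, or 0.03 without dnTCF4 replicate 3, whereas Eif3f had 0.52, and no test set Eif3f against them. Eif3k had 161 ± 28.6 RPKM in dnTCF4 and 123 ± 12.4 in WT, and Eif3e had 93.7 ± 12.6 in dnTCF4 and 76.5 ± 5.64 in WT (SD, n = 3 each). Of 25 other initiation factors 18 had a higher mean in dnTCF4, or 9 after median ratio scaling, among them Eif1 with 40.6 ± 3.08 RPKM in dnTCF4 and 31.9 ± 2.99 in WT. Of 20 tested genes of mTORC1 and TOP control 13 were higher, with a median of 0.11, or 9 with a median of -0.05 after median ratio scaling. Eif4ebp1, which encodes a brake on cap-dependent initiation released by mTORC1, had 4.38 ± 1.66 RPKM in dnTCF4 and 2.88 ± 0.680 in WT.

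Among the partners of Pabpc1, 5 of 7 tested genes had a higher mean in dnTCF4, or 3 after median ratio scaling. Paip1, a coactivator that binds the poly(A)-binding protein, had 15.8 ± 1.00 RPKM in dnTCF4 and 13.0 ± 1.29 in WT. Of 13 tested nascent chain factors 7 were higher, and 7 after median ratio scaling. Btf3, the beta subunit that pairs with Naca, had 303, 276 and 304 RPKM in dnTCF4 replicates 1, 2 and 3, against 256, 223 and 266 in WT, a log2 fold change of 0.25 (limma adjusted p = 0.66) and of 0.03 after median ratio scaling. Of 12 further transcripts often grouped with TOP mRNAs 10 were higher, with a median of 0.26, or 7 with a median of 0.05 after median ratio scaling, and Snhg1 had 27.3 ± 6.04 RPKM in dnTCF4 and 19.5 ± 3.20 in WT. Some of these genes belong to more than 1 list.

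Other hosts of small nucleolar RNAs are the nearest relatives of Gas5. Of 13 tested hosts 12 had a higher mean in dnTCF4 (median log2 fold change 0.41), and 10 after median ratio scaling with a median of 0.20. Groups of 5 hosts did not overlap, all higher in dnTCF4, where 15.4% of all genes showed the same. Snhg9, annotated as an antisense RNA, had 54.2, 50.4 and 67.2 RPKM in dnTCF4 replicates 1, 2 and 3, against 14.3, 23.0 and 33.2 in WT replicates 1, 2 and 3. Its log2 fold change was 1.32 (SE 0.31, limma adjusted p = 0.19) and 1.11 after median ratio scaling, and it passed only with a GC correction and a replicate block together (adjusted p = 0.049). Because the libraries do not mark strand, reads from it and from the gene opposite cannot be told apart. Snhg3 had 4.27 ± 1.01 RPKM in dnTCF4 and 2.56 ± 0.425 in WT (SD, n = 3 each, limma adjusted p = 0.46).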

How the data were processed

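Poly(A) RNA of 6 ST-HSC samples was measured. The authors deposited RPKM values, 1 column per sample, named as in the descriptions of the samples. The submitters' processing notes name the builds mm10 and GRCm38 and the tools featureCounts, STAR, edgeR and DESeq2, without roles. Tool versions, gene annotation and how multi-mapping reads were handled: not given in the sources used here. Per the labels' protocols, cDNA came from a SMART-Seq v4 kit and libraries from Nextera XT, which do not mark strand.

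Of the symbols, 49627 matched 1 gene of GENCODE M21 (GRCm38), which gave coordinates and exon lengths. RPKM times exon length fell on whole reads (within 0.02 of a read) for 94.4% to 95.2% of genes checked, which gave the depth. Every pair of libraries within a genotype differed by more than sampling noise (lowest chi-square per gene 157).

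Genes averaging 1 RPKM or more were tested on log2(RPKM + 1), two-sided, with limma 3.58.1 (trended eBayes, genotype as the only term) in R 4.3.3. A fold change on this scale understates that of low genes. Deviations of same-numbered dnTCF4 and WT libraries correlated at 0.17, 0.35 and 0.30, all above a bound of 0.1. The numbers were therefore taken to pair the samples, which the labels do not state, and a fit with a replicate block was an alternative. GC content was that of the longest protein-coding transcript or, for genes with none, of the longest transcript. Alternatives were other scalings, pseudocount, filters, library weights, voom, a GC correction and leaving out each library. Other steps used numpy 2.4.6, pandas 2.3.3 and, for the plots, matplotlib 3.10.9 under Python 3.11.15.

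The members and lists were chosen with earlier results of these data known. Named genes are the 10 members, up to 3 of each list with the smallest p, and the 5 nearest profiles; Fau and Rab38 were named after their values were seen.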

Additional observations from a re-analysis of the deposited data

How the results depend on the processing

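None of the 10 transcripts was called by limma in any setting tried, nor by voom. Of 179 values of single members under 18 alternatives 169 kept their direction and 10 reversed. The other filters and the replicate block leave a member's fold change as it was, so their values could not reverse. The GC correction with a block likewise only repeats the fold changes of the GC correction. With median ratio scaling Eef1b2 was at -0.073 and Eef1d at -0.086, and with a GC correction, with or without the block, Eef1b2 was at -0.060. Median ratio scaling without dnTCF4 replicate 3, chosen after seeing the data as was the GC correction, gave Eef1d -0.15, Eef1g -0.065, Eef2 0.064, Pabpc1 -0.051, Eef1e1 -0.025 and Pan3 -0.011. Leaving out each library in turn moved Eef2 between -0.47 and 0.23 and Dph7 between -0.44 and 0.029, the highest of both without dnTCF4 replicate 3. The median of the 10 was 0.15 with median ratio scaling and 0.060 with that library also left out, and 0.22 to 0.48 over the left-out libraries. With the immunoglobulin genes left out it was 0.24, against 0.04 for all genes and 0.30 for the ribosomal protein genes. The smallest limma adjusted p of the 10 in that fit was 0.85. Relative to the ribosomal protein genes the median difference of the 10 was -0.079 to 0.12. The count of genes called, 34, was 0 without the immunoglobulin genes (647 at an unadjusted p under 0.05), 6 with no filter, 14 by voom, 86 with library weights, 16 with a GC correction, 21 with median ratio scaling without dnTCF4 replicate 3, and 7 to 34 over the left-out libraries: 22, 16 and 11 without dnTCF4 replicates 1, 2 and 3, and 7, 34 and 18 without WT replicates 1, 2 and 3. The replicate block gave 49 genes, with a GC correction 97, and with both Snhg9 had an adjusted p of 0.049 and a log2 fold change of 1.30; the block alone changed no other call among the transcripts named. A pyrimidine run was found in 2 genes at the start, in 4 within 10 bases and in 7 in the wide window. The cause of these shifts was not tested. With 3 samples a group no exact permutation p below 0.1 is possible.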
